A study of Mus musculus with 6 samples.

Results

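The RGS genes encode regulators of G protein signalling, and 10 of them were followed in the cochlear nucleus, the brainstem nucleus where the auditory nerve ends, after the nerve of 1 ear had been silenced. The members were Rgs2, Rgs3, Rgs4, Rgs5, Rgs7, Rgs8, Rgs10, Rgs16, Rgs17 and Rgs20, taken as every probe set that the array annotation assigns to 1 of these symbols alone, which gave 21 of the 22690 probe sets measured. The family was picked because Rgs2 and Rgs4 had been seen to be low on the infused side of these arrays. Every difference between the sides given here for a member is therefore a description, and no p-value is given for it.

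Mice at postnatal day 21 received tetrodotoxin, a toxin that blocks sodium channels and so stops action potentials, in 1 cochlea from an osmotic pump for 24 h. The ipsilateral group was the cochlear nucleus on the infused side and the contralateral group the nucleus on the other side, with 3 biological replicates each, every one a pool of tissue from 10 to 12 mice. All mice carried a pump, no untreated mice were measured, and the strain is not given in the sources used here. A difference could thus come from a change on either side, and in pooled tissue fewer cells of a type and less RNA per cell cannot be told apart.

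A heterotrimeric G protein is switched on when a receptor makes its alpha subunit bind GTP, and it switches off when the subunit hydrolyses that GTP. RGS proteins share a domain that speeds up this hydrolysis and so shortens the signal of metabotropic glutamate, GABA-B, muscarinic, monoamine and opioid receptors. Mammalian RGS proteins are grouped by sequence into an R4 class of mostly small proteins (Rgs2, Rgs3, Rgs4, Rgs5, Rgs8 and Rgs16 here), an R7 class that binds the beta subunit Gnb5 (Rgs7), an R12 class (Rgs10) and an RZ class named for its action on the alpha subunit Gz (Rgs17 and Rgs20). In rodent brain Rgs2 messenger RNA is known to be induced by neuronal activity.

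Values are log2 GCRMA expression values, a scale on which a difference of 1 is a doubling of the signal. Probe sets with a mean above 4 over the 6 arrays were tested, 15298 in all, among them 18 of the 21 RGS probe sets and 9 of the 10 genes. In limma 0 probe sets passed a Benjamini-Hochberg adjusted p of 0.05 (0%), and 364 had an unadjusted p under 0.05 (2.38%); a plain equal-variance test gave 0 and 423. Arrays of equal replicate number are called pairs here, although the labels do not say outright that they come from the same mice. With replicate pairs as a block the limma counts were 0 and 569. With 3 arrays a side, the smallest two-sided p of an exact permutation test is 0.1. The array medians lay between 5.86 and 5.91. Of 10 genes for channels, transmitters, calcium buffers and regional identity of this nucleus, chosen after the data were seen, 8 were on the array and 6 were above the minimum, while the glycine transporter gene Slc6a5 (mean 3.03) and the rhombic lip factor gene Atoh1 (mean 2.66) were not. Markers of the choroid plexus, the tissue that makes cerebrospinal fluid and lies against the nucleus, averaged 9.19, 4.87 and 5.09 on the ipsilateral arrays and 8.18, 7.89 and 7.41 on the contralateral arrays for the 8 tested. Ipsilateral replicate 1 thus stood apart from ipsilateral replicates 2 and 3 in tissue content, and results that turn on it are given with and without it. It was also the ipsilateral array nearest to the contralateral ones, so leaving it out does not match the sides in this tissue.

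Rgs2 and Rgs4 were lower on the infused side, and Rgs5, the gene next to Rgs4 on the chromosome, was not set apart between the sides. The 250 bases before the start of these 3 genes are shown for this contrast, from RefSeq on build GRCm38.p6, 5′ to 3′ along the gene's own strand, at chr1:144004150-144004399 (minus strand) for Rgs2, chr1:169747643-169747892 (minus strand) for Rgs4 and chr1:169655251-169655500 (plus strand) for Rgs5. Capitals mark matches to TGACG on either strand, the half-site of the cyclic AMP response element that CREB binds, and to TATAAA, the TATA box.
Rgs2: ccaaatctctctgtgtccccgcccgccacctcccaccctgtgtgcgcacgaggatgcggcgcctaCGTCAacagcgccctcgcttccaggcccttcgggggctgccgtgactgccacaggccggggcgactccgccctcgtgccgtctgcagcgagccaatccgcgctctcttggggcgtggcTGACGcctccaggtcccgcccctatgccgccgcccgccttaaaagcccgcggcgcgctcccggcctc
Rgs4: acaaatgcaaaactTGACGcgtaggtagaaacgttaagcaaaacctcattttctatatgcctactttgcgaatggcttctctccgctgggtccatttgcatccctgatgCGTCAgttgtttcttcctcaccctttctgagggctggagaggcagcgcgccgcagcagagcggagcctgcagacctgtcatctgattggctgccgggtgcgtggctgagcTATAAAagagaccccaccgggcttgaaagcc
Rgs5: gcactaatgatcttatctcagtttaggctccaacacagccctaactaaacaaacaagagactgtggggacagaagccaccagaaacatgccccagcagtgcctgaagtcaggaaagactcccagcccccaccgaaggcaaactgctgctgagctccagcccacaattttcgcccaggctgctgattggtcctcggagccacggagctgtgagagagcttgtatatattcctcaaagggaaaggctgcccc

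The half-site TGACG was found at 2 places in the Rgs2 window, beginning 185 and 67 bases before the start, and at 2 places in the Rgs4 window, 236 and 141 bases before it. The Rgs5 window held none. Among the 32851 RefSeq promoters 17.8% held at least 1 match in this window and 3.9% at least 2. Rgs4 also held a TATA box 31 bases before its start, a motif in 12.4% of promoters. The full element TGACGTCA, which contains the half-site (1.55% of promoters), the AP-1 motif TGANTCA (6.75%) and the CArG box of serum response factor (1.47%) had no match in these 3 windows. The GC box GGGCGG (32.7%), not marked in capitals, had 4 matches in the Rgs2 window and 0 in those of Rgs4 and Rgs5. It also matched in promoters of Rgs3, Rgs10, Rgs16 and Rgs17. Over the 12 promoters listed for 9 of the 10 genes, the half-site was also found once in 1 of the 3 of Rgs8. The TATA box was also found once in each of the 2 of Rgs3, and the AP-1 motif once in that of Rgs17. These are matches of letters and say nothing of whether a factor was bound.

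Rgs2, a small protein that acts mainly on the alpha subunit Gq, was lower on the infused side by both of its probe sets. Its brighter probe set, 1419248_at, read 8.45, 8.23 and 8.80 on ipsilateral arrays 1, 2 and 3, against 9.31, 9.25 and 9.26 on the contralateral arrays. The contralateral arrays lay within a narrow band, all 3 ipsilateral arrays lay below it, and the gap between the sides was 0.45. The means were 8.49 ± 0.29 ipsilaterally and 9.28 ± 0.03 contralaterally (SD, n = 3 each), a difference of -0.78 (limma SE 0.15) or a 1.72-fold lower signal. The second probe set, 1419247_at, read 7.75, 7.69 and 7.75 on the ipsilateral arrays, against 8.37, 8.53 and 8.36 on the contralateral arrays. Here too the sides were separate, by 0.61, and here the ipsilateral arrays were the narrower group. This probe set differed by -0.68 (limma SE 0.09), a 1.61-fold lower signal. By replicate pair the difference was -0.86, -1.02 and -0.47 for the brighter probe set and -0.61, -0.83 and -0.61 for the other. The infused side was therefore the lower one in 3 of 3 pairs by either probe set, which held for 13% of all tested probe sets. Leaving out any array or pair moved the brighter probe set between -0.94 and -0.65 and the other between -0.72 and -0.61.

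Rgs4, which acts on the alpha subunits Gi, Go and Gq and is abundant in neurons, had 3 probe sets, all of them lower on average on the infused side. The brightest, 1416286_at, read 7.91, 8.24 and 8.29 on the ipsilateral arrays, against 8.69, 8.67 and 8.62 on the contralateral arrays. The sides did not overlap, with a gap of 0.33, and the spread was again wider on the infused side. The difference was -0.51 (limma SE 0.12), a 1.43-fold lower signal, and ipsilateral replicate 1 was the lowest of the 6 arrays. The probe set 1416287_at read 7.12, 7.09 and 7.37 on the ipsilateral arrays, against 7.45, 7.54 and 7.61 on the contralateral arrays. Its sides were separate by only 0.08 and its difference was -0.34 (limma SE 0.11). The dimmest, 1448285_at, read 6.13, 5.27 and 6.36 on the ipsilateral arrays, against 6.21, 6.91 and 6.82 on the contralateral arrays. Its sides overlapped, since ipsilateral replicate 3 stood above contralateral replicate 1. Its difference of -0.73 (limma SE 0.31) was drawn mostly from pair 2, at -1.64, against -0.08 in pair 1 and -0.46 in pair 3, and without replicate 2 of both sides it was -0.27. The 3 probe sets of Rgs4 thus shared a direction in 3 of 3 pairs and differed in size.

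With the choroid plexus marker level added to the model, Rgs2 differed by -0.79 and -0.67 and Rgs4 by -0.63, -0.38 and -0.63, in the probe set order above. Without ipsilateral replicate 1 the brightest probe set of Rgs4 differed by -0.39, and with that replicate as the only infused sample by -0.75. That last setting was chosen after seeing the data.

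**Figure D1:**
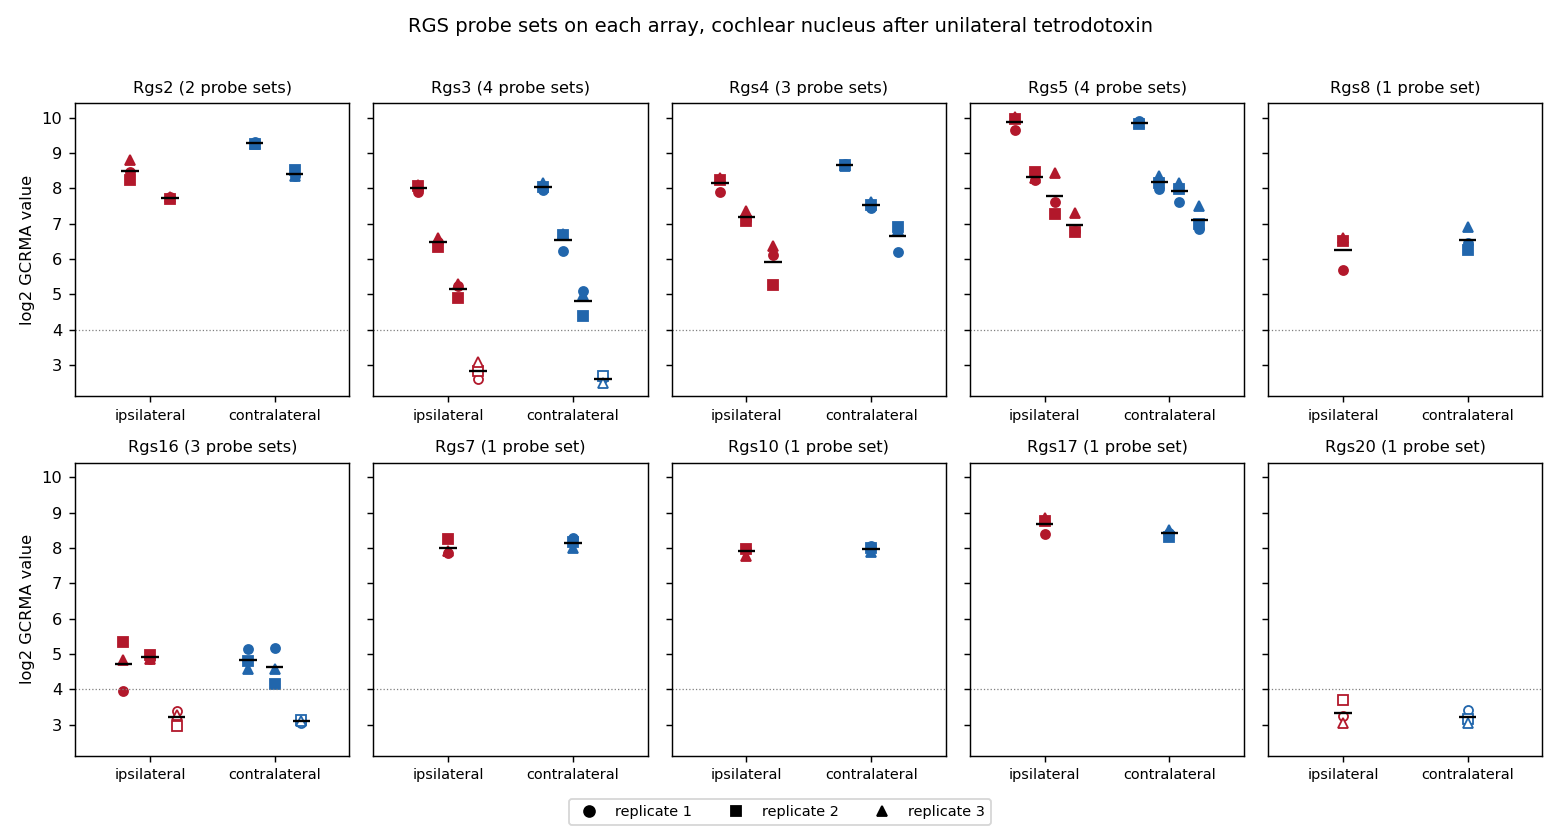
Each panel is 1 RGS gene and plots the log2 GCRMA value (vertical axis) of each of its probe sets on the 3 ipsilateral arrays (red, left) and the 3 contralateral arrays (blue, right). Symbols give the replicate number, bars the mean, the dotted line the minimum mean of 4 and open symbols the 3 probe sets below it. The sides are separate for both probe sets of Rgs2 and for 2 of the 3 of Rgs4, genes picked for being low. Of all tested probe sets 3.44% are separate with the infused side lower.

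The other R4 genes showed no such separation of the sides. Rgs5, known as a marker of pericytes, had 4 probe sets whose differences pointed both ways. Its brightest, 1417466_at, read 9.66, 9.95 and 10.03 on the ipsilateral arrays, against 9.90, 9.81 and 9.85 on the contralateral arrays. The ipsilateral arrays lay on either side of the contralateral ones, and the difference was 0.03 (limma SE 0.12). It was -0.19 with ipsilateral replicate 1 alone and 0.16 without replicate 1 of both sides. The probe set 1420941_at differed by 0.16 (limma SE 0.13), and 1420942_s_at and 1420940_x_at, whose suffixes mark probes that can bind related transcripts, by -0.14 and -0.16. Of these, 1420940_x_at was lower on the infused side in 3 of 3 pairs, with overlapping sides. The 13 tested markers of mural cells and meninges averaged 6.42, 6.37 and 6.45 on the ipsilateral arrays and 6.57, 6.46 and 6.49 on the contralateral arrays, 10 of them lower on the infused side. Among them the pericyte receptor gene Pdgfrb differed by -0.17, Notch3 by -0.07 and Abcc9 by -0.06. The 3 higher ones were Cspg4 (0.08), Col1a1 (0.07) and Dcn (0.05). Of the 13 markers, 0 had an unadjusted limma p under 0.05.

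Rgs8, a regulator of Gi and Go that is abundant in cerebellar Purkinje cells, had 1 probe set. It read 5.70, 6.53 and 6.58 on the ipsilateral arrays, against 6.47, 6.25 and 6.91 on the contralateral arrays. Only ipsilateral replicate 1 was low, and the other 2 ipsilateral arrays lay among the contralateral ones. The difference of -0.27 (limma SE 0.27) was 0.01 without that array and -0.84 with it as the only infused sample. It was -0.09 without contralateral replicate 3 and -0.58 with choroid plexus level in the model. The 11 tested markers of Purkinje, cartwheel and granule cells averaged 9.43, 9.40 and 9.92 on the ipsilateral arrays and 9.55, 9.53 and 9.93 on the contralateral arrays. Of these 6 were higher and 5 lower on the infused side. The lower ones were Calb1, Car8, Slc1a6, Ppp1r17 (-0.20) and Pcp2 (-0.30). The higher ones were Cbln1, Cbln3, Neurod1, Gabra6, Zic1 and Pvalb, from 0.03 for Pvalb to 0.14 for Cbln1. The calcium buffer gene Calb1 was the 1 with an unadjusted limma p under 0.05 (-0.48). With the replicate block 3 were, the others being Car8 (-0.31) and the glutamate transporter gene Slc1a6 (-0.25). Their part in the Rgs8 values was not tested.

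Rgs16, a regulator of Gi and Gq, was dim, with 2 of its 3 probe sets above the minimum and pointing opposite ways. The probe set 1455265_a_at read 3.96, 5.35 and 4.82 on the ipsilateral arrays, against 5.14, 4.79 and 4.58 on the contralateral arrays. It was low on ipsilateral replicate 1 only, like Rgs8, which is its neighbour on chromosome 1, and its difference was -0.13 (limma SE 0.34). Without that array the difference was 0.24, and with choroid plexus level in the model it was -0.49. The other, 1426037_a_at, read 4.87, 4.97 and 4.87 on the ipsilateral arrays, against 5.18, 4.16 and 4.57 on the contralateral arrays, a difference of 0.27 (limma SE 0.24). That difference was 0.54 without contralateral replicate 1 and 0.03 without contralateral replicate 2. The third, 1451452_a_at, stayed between 2.97 and 3.40 on all 6 arrays and was not tested.

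Rgs3, a longer R4 protein made in several isoforms, had 4 probe sets and 3 above the minimum. Its brightest, 1425296_a_at, read 7.90, 8.05 and 8.09 on the ipsilateral arrays, against 7.97, 8.04 and 8.16 on the contralateral arrays, and differed by -0.04 (limma SE 0.10). The sides overlapped almost fully, and without ipsilateral replicate 1 the difference was 0.02. The dimmer 1425701_a_at differed by -0.06, and 1449516_a_at by 0.33 (limma SE 0.21). This dim probe set read 5.25, 4.90 and 5.31 on the ipsilateral arrays, against 5.10, 4.40 and 4.97 on the contralateral arrays. It was higher on the infused side in 3 of 3 pairs, the 1 tested RGS probe set for which this held, although the sides overlapped. With the replicate block its SE was 0.10, and without contralateral replicate 2 its difference was 0.12. Averaging the tested probe sets of the gene turned the difference of Rgs3 to 0.08. The fourth, 1454026_a_at, lay between 2.50 and 3.08 and was not tested.

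Outside the R4 class 4 genes had 1 probe set each. Rgs7, which acts on Go in a complex with Gnb5, read 7.85, 8.25 and 7.91 on the ipsilateral arrays, against 8.28, 8.16 and 8.00 on the contralateral arrays. The sides overlapped, and the difference was -0.15 (limma SE 0.14), or -0.07 without ipsilateral replicate 1. Its partner Gnb5 differed by -0.16 (limma SE 0.11) and was the lower one on the infused side in 3 of 3 pairs.

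Rgs10, a short protein that acts on Gi and is abundant in microglia as well as in neurons, read 7.97, 7.98 and 7.77 on the ipsilateral arrays, against 8.06, 8.01 and 7.88 on the contralateral arrays. It was lower in 3 of 3 pairs, and its difference of -0.08 was smaller than the SD within either side, 0.12 ipsilaterally and 0.09 contralaterally. The 10 tested microglial markers lay the other way, averaging 7.04, 7.05 and 6.91 on the ipsilateral arrays and 6.75, 6.78 and 6.92 on the contralateral arrays, with 9 of 10 higher on the infused side. Of the 10, 3 had an unadjusted limma p under 0.05, all higher, the complement gene C1qb (0.38), the lysosomal gene Cd68 (0.41) and Aif1 (0.26). Their part in the Rgs10 values was not tested.

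Rgs17, an RZ protein that acts on Gz and other Gi class subunits, was the tested RGS gene furthest to the high side by its brightest probe set. It read 8.39, 8.77 and 8.84 on the ipsilateral arrays, against 8.43, 8.32 and 8.52 on the contralateral arrays. Ipsilateral replicates 2 and 3 stood above all contralateral arrays and ipsilateral replicate 1 did not. The difference was 0.24 (limma SE 0.14), and it was 0.38 without ipsilateral replicate 1, -0.03 with that replicate as the only infused sample and 0.10 with choroid plexus level in the model. These 2 ipsilateral arrays are those low in choroid plexus markers, and the part of that tissue in the values was not tested. Rgs20, the other RZ member, lay between 3.05 and 3.69 on all arrays, under the minimum mean, and was not tested.

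**Figure D2:**
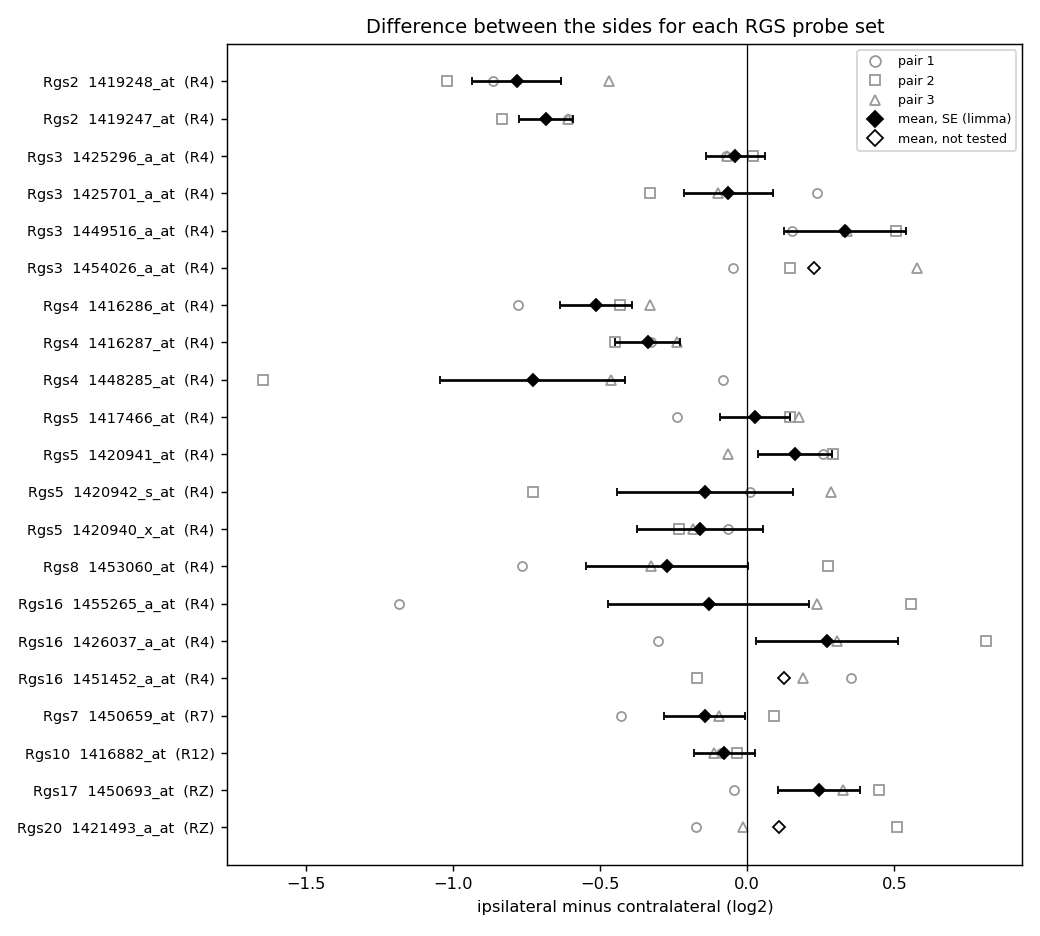
The ipsilateral minus contralateral difference (horizontal axis, log2) is plotted for each of the 21 RGS probe sets, with grey symbols for the 3 replicate pairs and black diamonds for the mean, with the limma SE where tested. The 5 probe sets of Rgs2 and Rgs4 have all 3 pairs below 0, as do, by smaller differences, Rgs10 and Rgs5 1420940_x_at. Of all tested probe sets 13% have all 3 pairs below 0. The pairs of Rgs8, Rgs16 and Rgs7 fall on both sides of 0.

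Counted over the 18 tested RGS probe sets, 13 were lower and 5 higher on the infused side by their means, with a median of -0.14 against -0.01 over all 15298 probe sets. With 1 probe set per gene, the brightest, 7 of 9 genes were lower (median -0.13), where 50.9% of 8754 named genes were. That count was 4 of 9 without ipsilateral replicate 1, the lowest over the settings tried, and 9 of 9 with that replicate as the only infused sample. The arrays of the sides did not overlap, with the infused side lower, for 4 RGS probe sets, both of Rgs2 and 2 of Rgs4, where 3.44% of all tested probe sets met this. A difference of -0.5 or below was seen for 4 of 18, both probe sets of Rgs2 and the brightest and dimmest of Rgs4, against 0.758%, and a lower value in 3 of 3 pairs for 7 of 18, against 13%. Since Rgs2 and Rgs4 brought the family into view, nothing is read from these shares.

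**Figure D3:**
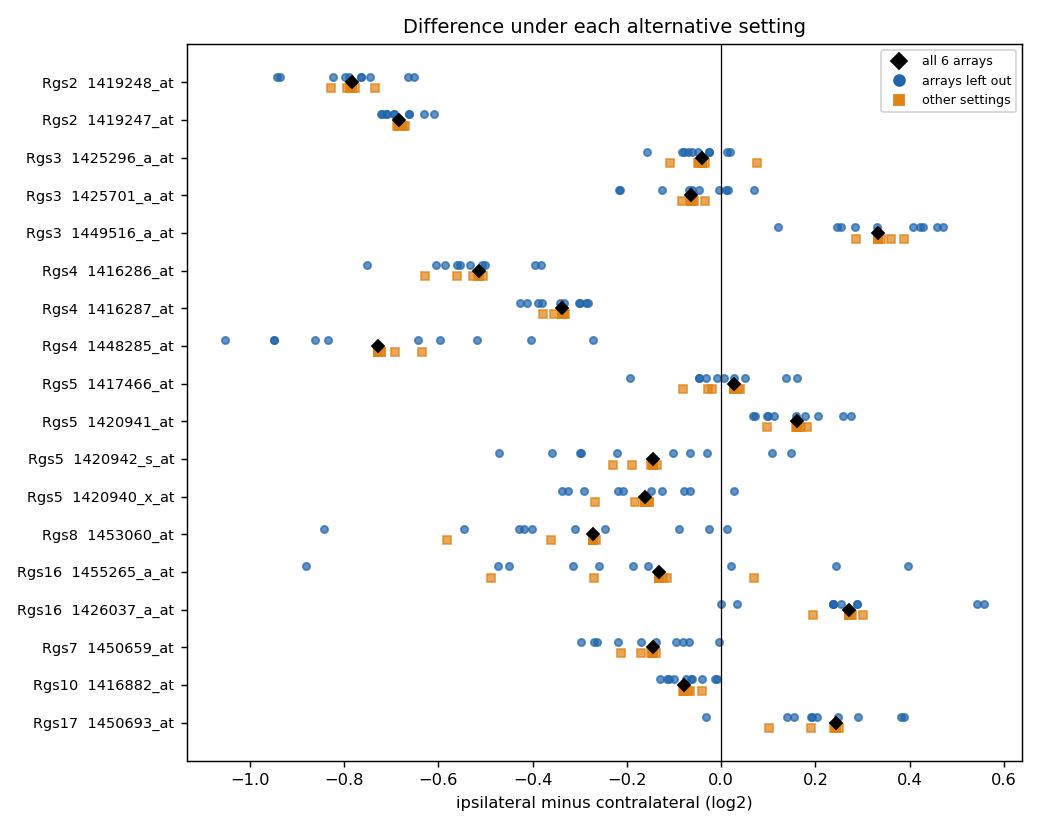
The log2 difference of each tested RGS probe set (horizontal axis) is plotted with all 6 arrays (diamonds), with arrays left out (blue circles) and under the other settings (orange squares). Rgs2 and Rgs4 stay below 0 throughout, as do Rgs7 and Rgs10, which come as near to 0 as -0.004 and -0.01. For the 4 probe sets of Rgs2 and Rgs4 with separate sides, leaving out arrays could not change the sign. Rgs8, Rgs16 1455265_a_at and Rgs5 1417466_at are among those that reach both sides of 0 when arrays are left out.

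The genes whose values ran most like those of Rgs2 over the 6 arrays, by Pearson correlation of log2 values of 8753 other named genes, were Scg2, a precursor of the peptide secretoneurin (0.98), Maged2 (0.97), the troponin gene Tnnt1 (0.97), Cmas, an enzyme that activates sialic acid (0.97), and Ccdc71l (0.97). Their sizes were unlike, since Scg2 differed by -0.36 and Tnnt1 by -0.43 but Maged2 by -0.16, Ccdc71l by -0.14 and Cmas by -0.09. For Rgs4 they were Zcchc9 (0.99), the islet cell autoantigen gene Ica1 (0.99), the sphingosine kinase gene Sphk1 (0.98), Zfp598 (0.98) and the prefoldin subunit gene Pfdn1 (0.97). Their differences ran from -0.32 for Zcchc9 to -0.06 for Pfdn1. No gene was in both groups of 5. The 6 points fall into 2 sides, so these correlations include the difference between the sides.

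Among the other genes of G protein signalling, 126 were listed in 6 groups and 60 were bright enough to test. Of these 38 were higher and 22 lower on the infused side (median 0.03), 2 had an unadjusted limma p under 0.05, both higher, against 2.43% of all 8754 genes, and 0 passed adjustment. The lists were drawn up with earlier results of these data known.

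Closest to the members, 5 of 14 other RGS genes and R7 partners were tested, 3 higher and 2 lower, with a median of 0.00. That median was -0.16 with a minimum mean of 6 and -0.09 with probe sets averaged. Rgs19 differed by 0.09 by its brightest probe set and by -0.28 by its other one. Rgs11, an R7 gene, read 5.04, 5.75 and 5.78 on the ipsilateral arrays, against 5.34, 5.21 and 4.67 on the contralateral arrays, with overlapping sides and a difference of 0.45 (limma SE 0.25). Rgs9, the R7 gene of striatum and retina, was dim and differed by -0.19 (limma SE 0.11). Rgs1, Rgs6 and Rgs18 were on the array and below the minimum.

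Of 9 genes of the switches themselves, the G alpha subunits, 8 were higher by their brightest probe sets, with a median of 0.04 and a range from -0.03 to 0.17. Over all 24 tested probe sets of these genes 15 were higher and 9 lower, from -0.42 to 0.34. Of the 24, 2 had an unadjusted limma p under 0.05, 1 of Gna12 (0.34) and 1 of Gnai1 (-0.24), and neither was the brightest of its gene. The outermost was Gna11, a Gq class subunit, at 8.38 ± 0.14 ipsilaterally and 8.21 ± 0.11 contralaterally (SD, n = 3 each), and Gnaz, which encodes Gz, differed by 0.07. Of 10 beta and gamma subunit genes 5 were higher and 5 lower (median 0.01). Gng4 differed by 0.14, and Gnb1 by -0.20 with an ipsilateral SD of 1.14, because ipsilateral replicate 3 read 8.20 against 10.14 and 10.20 on the other ipsilateral arrays. Another tested probe set of Gnb1 differed by 0.06.

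Receptors upstream were mostly dim, and 6 of 39 were tested, 1 higher and 5 lower (median -0.04). The cannabinoid receptor gene Cnr1 differed by -0.57 (limma SE 0.41), with overlapping sides at 4.53, 3.68 and 4.88 on the ipsilateral arrays and 4.30, 5.62 and 4.88 on the contralateral arrays. The GABA-B receptor subunit gene Gabbr1 differed by -0.07.

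Downstream, 11 of 17 effector genes were higher (median 0.11, or 0.03 without contralateral replicate 2 and 0.23 without contralateral replicate 3). Adcy7, an adenylyl cyclase, was measured by a probe set with the suffix _s_at, its only tested one. That suffix marks probes that can bind related transcripts. Adcy7 read 6.75, 6.95 and 6.68 on the ipsilateral arrays, against 6.56, 6.26 and 6.25 on the contralateral arrays. Its sides were separate and its difference was 0.44 (limma SE 0.13, unadjusted p = 0.0117, adjusted p = 1.00). The microglial markers given beside Rgs10 were likewise higher on average on the infused side (median 0.17), and this was not particular to microglia. Of 7 tested oligodendrocyte markers 7 were higher (median 0.13), and of 8 astrocyte markers 7 (median 0.05). Of 10 pan-neuronal markers 4 were higher and 6 lower (median -0.04). The part of these cell types in the Adcy7 values was not tested.

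Of 13 other regulators, such as receptor kinases and arrestins, 10 were higher (median 0.05). Arhgef1, which binds the alpha subunits G12 and G13, read 7.13, 7.41 and 7.16 on the ipsilateral arrays, against 7.03, 7.01 and 6.76 on the contralateral arrays. It differed by 0.30 (limma SE 0.12, unadjusted p = 0.0483, adjusted p = 1.00). With the replicate block 3 of the 60 genes had an unadjusted limma p under 0.05, Adcy7, Arhgef1 and the potassium channel gene Kcnj9 (-0.22), the last named after its value was seen.

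**Figure D4:**
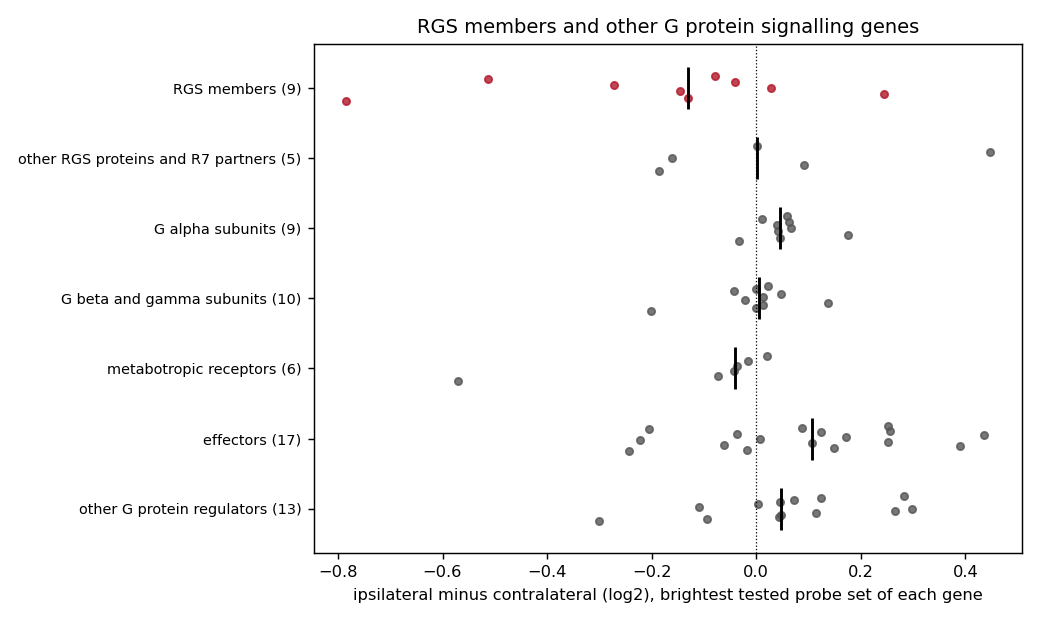
Each point is 1 gene, by its brightest tested probe set, placed at its ipsilateral minus contralateral difference (horizontal axis, log2); rows are the RGS members (red) and the 6 lists of other G protein signalling genes (grey), with the number tested in brackets and the median as a bar. Rgs2 (-0.78) is the lowest point of the plot, Cnr1 (-0.57) and Rgs4 (-0.51) come next, and the G alpha subunit genes lie between -0.03 and 0.17.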

How the data were processed

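Total RNA from 6 pools was hybridised to 1 Affymetrix array each, per the labels. The deposited values are log2 expression values per probe set made with GCRMA, per the submitters' processing notes, of unstated version and settings. GCRMA corrects background by probe sequence and normalizes between arrays, so dim differences are uncertain and a change common to most genes is removed. The range of the values, 1.40 to 16.0, shows the log2 scale.

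The sample descriptions gave side and replicate number, and genes were named from the platform annotation held by the repository, which gave 1 symbol for 20393 probe sets. All 10 members matched RefSeq by Entrez identifier. The 64 control probe sets and 7328 with a mean at or below 4 were left out. Over 15298 probe sets limma 3.58.1 (R 4.3.3) was fitted, ipsilateral minus contralateral, and was tested on simulated data. A gene is represented by its probe set of highest mean.

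The members and gene lists were chosen with earlier results of these data known. Named were all members, pathway list genes with an unadjusted p under 0.05 (otherwise the 2 of smallest p), and the 5 genes most like Rgs2 and Rgs4. Gnb5, Kcnj9, Uchl5 and the other neighbours, and the marker genes were named after their values were seen. The series' description of infusion in 1 ear was taken to mean that equal numbers mark both nuclei of the same mice. Their deviations from the side means correlated at 0.09, 0.04 and 0.57 across tested probe sets, and those of other combinations at -0.37 to 0.30. Ipsilateral replicate 1 with contralateral replicate 2 (0.19) and ipsilateral 2 with contralateral 1 (0.30) exceeded the equal numbers 1 and 2. For those numbers the correlations thus do not show the pairing. The alternatives were other filters, scalings, variance models, the pairing, the choroid plexus level, other uses of probe sets, and leaving out arrays or pairs. Precision is limited by the number of arrays.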

Additional observations from a re-analysis of the deposited data

How the results depend on the processing

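Rgs2 and Rgs4 kept their direction by all 5 of their probe sets under every alternative tried. They had been picked for being low on these same arrays. For their 4 probe sets whose sides did not overlap, leaving out arrays could not have reversed the direction. Rgs7 and Rgs10 also stayed lower, by as little as -0.004 and -0.01, so a kept direction was not particular to Rgs2 and Rgs4. No RGS probe set passed the adjusted threshold of 0.05 in limma under any alternative, nor did any RGS gene where probe sets were averaged. The count of RGS genes lower on the infused side was 7 of 9 with all arrays and lay between 4 (without ipsilateral replicate 1) and 8 with 1 array or 1 pair left out. The count of all probe sets past the adjusted threshold was 0 and ranged from 0 to 5 when arrays or pairs were left out, at 5 without ipsilateral replicate 1 and 2 without pair 1, with 0 RGS probe sets among them. The count at an unadjusted p under 0.05, 364, was 233 with a minimum mean of 6, where fewer probe sets were tested, 569 with the replicate block and 572 with replicate 1 as the only infused sample, and ranged from 300 to 522 when arrays or pairs were left out. The count of 2 G protein pathway genes was 1 with array weights, median centring, quantile normalization, a plain equal-variance test or a trended and robust variance. It was 0 without probe sets ending in _x_at or _s_at, a setting that removed Adcy7, whose only tested probe set ends in _s_at. It was 4 with choroid plexus level in the model and 0 to 4 with arrays or pairs left out. The cause of the other changes in this count was not tested. With the replicate block 0 probe sets passed adjustment, and among single genes Kcnj9 and the marker genes Car8, Slc1a6, Kdr (-0.41) and Sox9 (0.27) came under an unadjusted p of 0.05. With 1 infused sample, that sample is assumed to vary like the contralateral ones. No pseudocount was tried, as the values are logs. Dim probe sets near the minimum of 4, those of Rgs16 among them, are limited by signal over background.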

Other observations

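The chromosomal neighbours of the RGS genes were read from the same arrays, as the next protein-coding genes in RefSeq (GRCm38.p6), with their own brightest probe sets. Uchl5, a deubiquitinase that works at the proteasome and is the neighbour of Rgs2, measured 9.74 on the ipsilateral arrays and 9.81 on the contralateral arrays on average, a difference of -0.08 that was lower in 3 of 3 pairs. Rgs13, its neighbour on the other side, has no probe set under its symbol alone. Rgs5 and Rgs4 lie next to each other and differed by 0.03 and -0.51, and the neighbours Rgs8 and Rgs16 by -0.27 and -0.13. Beyond Rgs5 lies Nuf2, a kinetochore gene, which averaged 5.25 ipsilaterally and 4.81 contralaterally but was lower in 1 of 3 pairs. The fumarase gene Fh1, next to Rgs7, differed by -0.11 and was lower in 3 of 3 pairs, and Npl, next to Rgs8, differed by 0.14 and was lower in 0 of 3. The neighbours of Rgs10 (0.00 and 0.07) and of Rgs20 (-0.01 and -0.02) showed smaller differences. These values are descriptions, and neighbouring was not tested as a factor.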
